A study of Homo sapiens with 20 samples.

Results

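The enzymes that write, copy and remove DNA methylation were followed at the transcript level in human H1 cells during 4 days of endoderm culture. The 9 genes were picked by name and function, with earlier results of these data known, from the 54435 features that the count tables list. They are the maintenance methyltransferase DNMT1 and its partner UHRF1, the de novo methyltransferases DNMT3A and DNMT3B with their catalytically inactive cofactor DNMT3L, the oxidases TET1, TET2 and TET3, and the glycosylase TDG. All 9 are listed in every library, and 8 of them passed the filter on low counts and were tested. DNMT3L did not pass and is described by its counts.

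H1 is an established human embryonic stem cell line, and the study set clones whose labels give a knockout of the noncoding RNA DIGIT beside unedited cells (WT), to ask how they differentiate towards endoderm. At day 4, libraries came from clone KO2, clone KO1 and WT cells cultured in RPMI with B27 supplement and 50 ng/ml Activin A, a TGF-beta family ligand. At day 0, libraries came from the same 3 lines in mTeSR1, a feeder-free medium that keeps the cells undifferentiated. Poly(A) RNA was sequenced in 2 libraries for each of these 6 groups, 12 libraries in all. Each knockout line is a single clone, the labels do not say that replicates are separate cultures, and p values therefore measure only the spread between libraries. The level of DIGIT itself was not analysed here, and the knockout is taken from the labels.

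DNA methylation in mammals sits mostly on cytosines that are followed by guanine. After replication, UHRF1 recognises CG sites methylated on the old strand and brings DNMT1 to copy the mark, whereas DNMT3A and DNMT3B place methylation at sites that had none. TET enzymes oxidise methylcytosine in steps, and TDG cuts out the further oxidised bases for repair by base excision. Human embryonic stem cells are known for high DNMT3B and TET1, and DNMT3B is often used as a marker of the undifferentiated state.

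Sequences just before 1 listed start of each of 3 genes are shown because their transcripts had the 3 patterns that the results turn on. Over 4 days DNMT3B fell in every line, least in KO2. TET1 fell in KO1 and in WT and was not called in KO2, and TDG rose in every line. Each run holds the 250 bases before an annotated start, from RefSeq on GRCh38.p14, plus strand, with each CG in capitals. For TET1 the first of its 3 annotated starts is shown. For DNMT3B and for TDG the promoter source lists 1 start. Whether these are the main starts of the genes, or those used in these cells, was not examined. The positions are chr20:32779602-32779851 for DNMT3B, chr10:68560087-68560336 for TET1 and chr12:103965622-103965871 for TDG.
DNMT3B: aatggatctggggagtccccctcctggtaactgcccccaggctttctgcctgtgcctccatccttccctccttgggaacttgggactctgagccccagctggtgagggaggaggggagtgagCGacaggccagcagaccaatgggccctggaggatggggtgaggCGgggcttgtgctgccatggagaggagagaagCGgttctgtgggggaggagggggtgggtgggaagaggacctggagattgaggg
TET1: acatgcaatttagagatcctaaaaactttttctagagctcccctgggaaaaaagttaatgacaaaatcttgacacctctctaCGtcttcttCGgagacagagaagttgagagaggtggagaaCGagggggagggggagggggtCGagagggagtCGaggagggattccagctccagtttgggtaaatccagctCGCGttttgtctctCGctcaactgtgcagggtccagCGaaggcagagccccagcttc
TDG: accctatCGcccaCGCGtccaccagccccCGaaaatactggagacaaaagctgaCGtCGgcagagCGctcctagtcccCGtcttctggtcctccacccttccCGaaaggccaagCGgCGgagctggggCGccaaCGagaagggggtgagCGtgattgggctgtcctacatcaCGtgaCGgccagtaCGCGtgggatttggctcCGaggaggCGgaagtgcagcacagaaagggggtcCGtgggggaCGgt

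The DNMT3B run holds 3 CG sites, the TET1 run 9 and the TDG run 22, beside a median of 11 over 35093 promoter runs of the same length. At least 1 CG occurs in 93.9% of these runs. More sites than in the DNMT3B run occur in 70.7% of promoters, more than in the TET1 run in 52.2%, and more than in the TDG run in 25.8%. Of the other members, DNMT1 has 21 CG sites before its only listed start and UHRF1 has 28 before the first of its 3. Counts depend on the start taken. The other TET1 starts have 4 and 11, the TET2 starts 10 and 34, the TET3 starts 37 and 27, and those of DNMT3A from 12 to 33. The table matched 8 of the 9 members. DNMT3L is the member it leaves out. Methylation of these sites was not measured here, and the letters say nothing of how the genes are regulated.

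Levels are in CPM, which puts counts on a common scale per library through the total count and edgeR's TMM factor, and means are ± SD of 2 libraries. A member is called when its adjusted p in edgeR's quasi-likelihood test, corrected over all 16792 tested features by the Benjamini-Hochberg method, is under 0.05, and SE is the standard error of a log2 fold change. Total counts per library lay between 9942016 and 21394547. In KO1 at day 0 the 2 libraries differed from each other far more than other pairs did, with a chi-square of 20.1 per feature against 1.89 to 3.83 in the other 5 groups. Replicate 2 of that pair had 2959 CPM summed over 13 DNA replication genes, against 3528 to 3707 CPM in the other 5 day 0 libraries, so results that rest on KO1 at day 0 are given with and without each of its libraries. CPM values of different genes are not compared, since gene lengths were not used here, and counts of a bulk sample cannot tell fewer cells of a type from less RNA per cell.

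**Figure D1:**
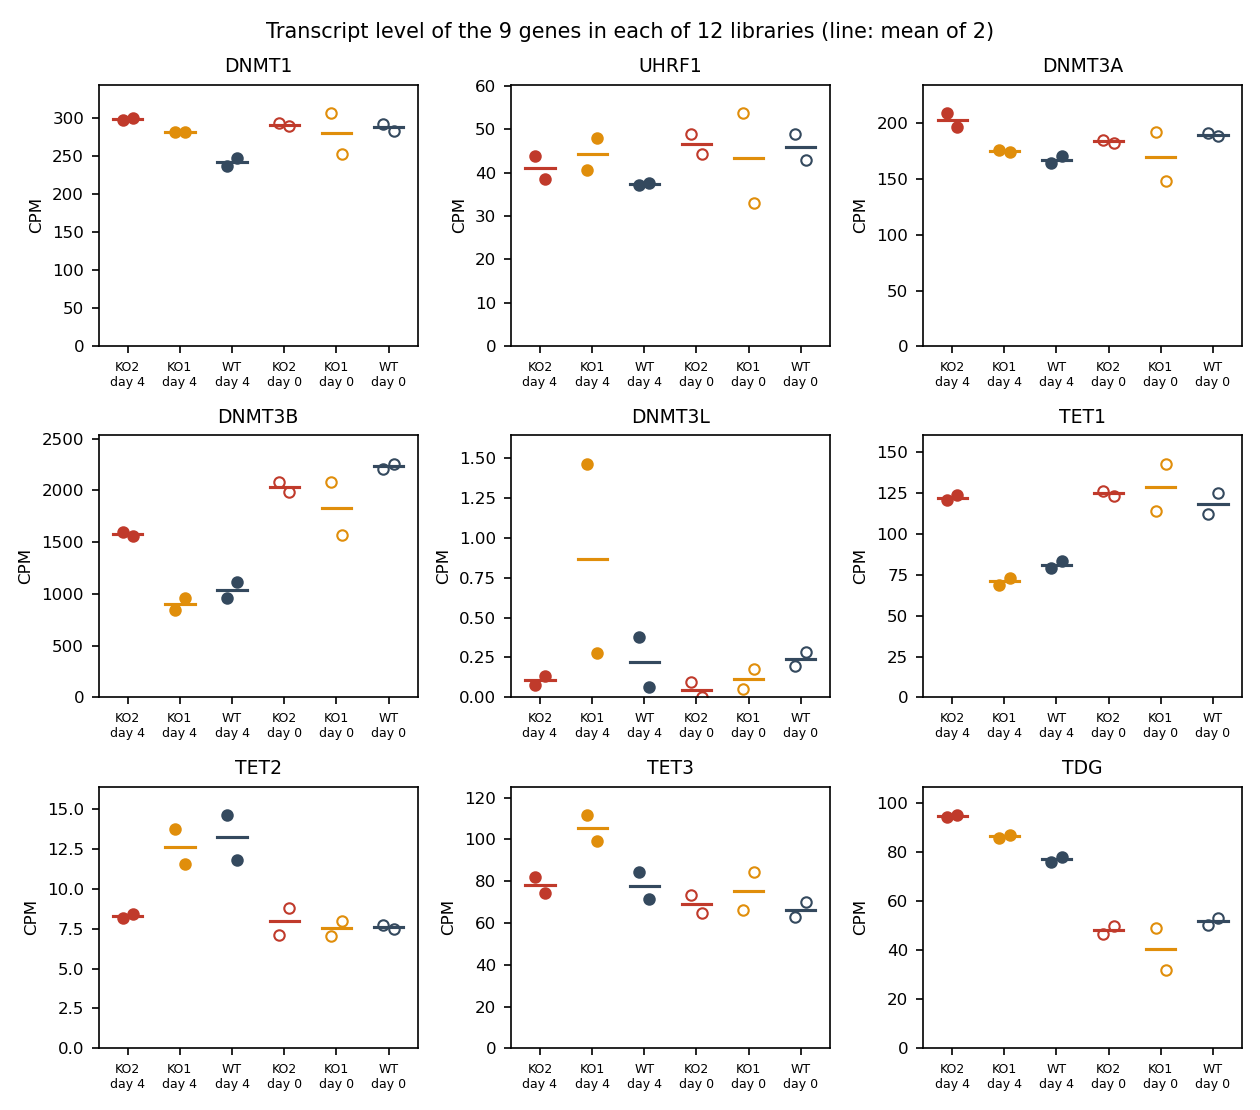
Level of each of the 9 genes in CPM (vertical axis, from 0) in all 12 libraries, by line and day; each point is 1 library, filled at day 4 and open at day 0, and each line is the mean of 2. DNMT3B and TET1 stand lower in KO1 and WT than in KO2 at day 4, TDG stands higher at day 4 than at day 0 in every line, and the 2 KO1 day 0 libraries lie apart for several genes.

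Over 4 days of endoderm culture, WT cells lost transcripts of DNMT3B, TET1 and DNMT1 and gained transcripts of TET2 and TDG. Of the 8 tested members, 1 rose and 1 fell in KO2, 3 rose and 2 fell in KO1, and 2 rose and 3 fell in WT. Among all tested features, 50.7% were called in KO2, 58.4% in KO1 and 49.6% in WT. Counts of 5 of 8 in KO1 and in WT are therefore near the background, and the 2 of 8 in KO2 lie below it. The median log2 fold change over the 8 members was 0.05 in KO2, 0.04 in KO1 and −0.21 in WT, and over all tested features it was −0.0027, 0.0023 and −0.0038 in the same lines.

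Among the maintenance genes, DNMT1 had 297 and 300.5 CPM in KO2 at day 4, 281.3 and 281.1 CPM in KO1 at day 4, and 237 and 248 CPM in WT at day 4. At day 0 it had 293 and 289.5 CPM in KO2, 307 and 252 CPM in KO1, and 293 and 283 CPM in WT. The WT day 4 libraries were the lowest of the 12, and the other 10 ran from 252 to 307 CPM. DNMT1 fell by 0.25 ± 0.08 (log2 ± SE) in WT, with an adjusted p of 0.022 in edgeR. That call is lost when any 1 of the 4 WT libraries is left out, with adjusted p values of 0.125 and 0.069 without day 0 replicates 1 and 2 and of 0.164 and 0.0623 without day 4 replicates 1 and 2. The DNMT1 differences of 0.04 ± 0.08 in KO2 and 0.01 ± 0.08 in KO1 were not called. Without day 0 replicate 1 the KO1 value became 0.16, with an adjusted p of 0.0439 in edgeR, and without replicate 2 it became −0.12, with an adjusted p of 0.123.

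UHRF1, which reads the half-methylated CG sites, had 43.7 and 38.5 CPM in KO2, 40.6 and 48.0 CPM in KO1 and 37.1 and 37.6 CPM in WT at day 4. UHRF1 at day 0 had 49.0 and 44.3 CPM in KO2, 53.8 and 33.1 CPM in KO1 and 48.9 and 42.9 CPM in WT. The WT day 4 libraries lay below the WT day 0 libraries, but the difference of −0.29 ± 0.17 was not called, with an adjusted p of 0.175 in edgeR. It was called when either KO1 day 0 library was left out of the shared estimate of the spread, at adjusted p values of 0.0177 and 0.0168. In KO1 the difference between days was 0.04 ± 0.17, and the 2 day 0 libraries enclosed both day 4 libraries. It became 0.43, with an adjusted p of 0.00192 in edgeR, without KO1 day 0 replicate 1, and −0.27, with an adjusted p of 0.0351, without replicate 2, so its direction in KO1 turns on which day 0 library is used. In KO2 the difference was −0.18 ± 0.17 and was not called.

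The de novo enzymes moved apart from each other. DNMT3B had 1600.5 and 1560 CPM in KO2 at day 4, 841 and 960.1 CPM in KO1 at day 4, and 964 and 1119 CPM in WT at day 4. The day 0 levels of DNMT3B were 2085 and 1990 CPM in KO2, 2080 and 1573 CPM in KO1, and 2205 and 2260 CPM in WT. Within KO1 and WT the day 4 libraries lay far below the day 0 libraries, and the KO2 day 4 libraries lay above those of the other lines at day 4 and on both sides of the lower KO1 day 0 library. DNMT3B fell by 1.02 ± 0.11 in KO1 and by 1.10 ± 0.11 in WT, at adjusted p values of 1.46e-06 and 9.41e-07 in edgeR. Without KO1 day 0 replicate 1 the KO1 value was −0.80, and without replicate 2 it was −1.20. In KO2, where day 4 also lay below day 0, it fell by 0.37 ± 0.11 with an adjusted p of 0.0116 in edgeR. This KO2 call is lost without KO2 day 0 replicate 1, with an adjusted p of 0.076, and without KO2 day 4 replicate 2, with an adjusted p of 0.0709.

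DNMT3A, the other active de novo enzyme, was nearly level. At day 4 it had 209.8 and 197 CPM in KO2, 176 and 174 CPM in KO1 and 165 and 170.3 CPM in WT, and at day 0 it had 185 and 183 CPM in KO2, 192 and 148.2 CPM in KO1 and 191 and 189 CPM in WT. Its change over 4 days was 0.14 ± 0.10 in KO2, 0.04 ± 0.10 in KO1 and −0.18 ± 0.10 in WT, and none was called. The WT difference was called without KO1 day 0 replicate 1 or 2, at adjusted p values of 0.0209 and 0.0201, as was the KO2 difference, at 0.0378 and 0.0396. In KO1 it was 0.24, with an adjusted p of 0.005 in edgeR, without day 0 replicate 1, and −0.13 without replicate 2. The DNMT3A row shares its gene span with the microRNA MIR1301 in the GRCh38 gene table.

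DNMT3L, which has no catalytic activity and stimulates the de novo enzymes, was close to the detection limit. It had 1 and 2 counts in KO2, 17 and 4 counts in KO1 and 5 and 1 counts in WT at day 4. At day 0 it had 1 and 0 counts in KO2, 1 and 4 counts in KO1 and 2 and 4 counts in WT. Only KO1 day 4 replicate 1 was above 5 counts, its partner library had 4, and no difference was tested. A floor of 3 counts equals 0.133 to 0.294 CPM in these libraries and covers counting error only.

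Among the demethylation genes, TET1 and TET2 moved in opposite directions in WT and in KO1. TET1 had 121 and 124 CPM in KO2 at day 4, 69.0 and 73.1 CPM in KO1 at day 4, and 79.0 and 83.5 CPM in WT at day 4. At day 0 it had 126 and 123.5 CPM in KO2, 114 and 143 CPM in KO1, and 112 and 125 CPM in WT. The KO1 and WT day 4 libraries lay below all other libraries, and KO2 at day 4 lay within the day 0 range. TET1 fell by 0.86 ± 0.10 in KO1 and by 0.55 ± 0.10 in WT, with adjusted p values of 3.07e-06 and 0.000324 in edgeR. The KO1 value was −1.01 without day 0 replicate 1 and −0.68 without replicate 2. In KO2 the difference was −0.03 ± 0.10, with an adjusted p of 0.821 in edgeR.

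TET2 had 8.18 and 8.43 CPM in KO2, 13.7 and 11.6 CPM in KO1 and 14.6 and 11.8 CPM in WT at day 4. Its day 0 levels were 7.12 and 8.81 CPM in KO2, 7.03 and 8.01 CPM in KO1, and 7.75 and 7.49 CPM in WT. The KO1 and WT day 4 libraries stood above the other 8, and the KO2 libraries of both days overlapped. TET2 rose by 0.74 ± 0.16 in KO1 and by 0.79 ± 0.16 in WT, at adjusted p values of 0.000872 and 0.00093 in edgeR. The KO1 rise was 0.65 without day 0 replicate 1 and 0.84 without replicate 2. In KO2 the difference was 0.06 ± 0.18, with an adjusted p of 0.786 in edgeR.

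TET3 had 82.2 and 74.4 CPM in KO2, 112 and 99.1 CPM in KO1 and 84.4 and 71.4 CPM in WT at day 4. TET3 at day 0 had 73.4 and 64.7 CPM in KO2, 66.2 and 84.4 CPM in KO1 and 62.8 and 69.9 CPM in WT. Both KO1 day 4 libraries were higher than all others. TET3 rose by 0.48 ± 0.12 in KO1, with an adjusted p of 0.00292 in edgeR, and this rise was 0.32 without KO1 day 0 replicate 1 and 0.67 without replicate 2. The differences of 0.18 ± 0.12 in KO2 and 0.23 ± 0.12 in WT were not called, at adjusted p values of 0.248 and 0.142. The WT difference was called without KO1 day 0 replicate 1 or 2, at 0.0242 and 0.0249. TET3 shares part of its span with BOLA3, a mitochondrial iron-sulfur cluster gene, and UHRF1 with ARRDC5. The strand setting of the counting is not given in the sources used here.

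TDG rose in all 3 lines. It had 94.3 and 95.1 CPM in KO2, 85.6 and 86.9 CPM in KO1 and 76.0 and 77.9 CPM in WT at day 4. Day 0 levels of TDG were 46.6 and 49.8 CPM in KO2, 48.9 and 31.9 CPM in KO1, and 50.2 and 53.1 CPM in WT. The 6 day 4 libraries lay above the 6 day 0 libraries with no overlap, and at day 4 the 3 lines did not overlap each other. TDG rose by 0.97 ± 0.14 in KO2, by 1.10 ± 0.14 in KO1 and by 0.57 ± 0.14 in WT, at adjusted p values of 4.04e-05, 6.03e-06 and 0.00282 in edgeR. The KO1 rise was 1.44 without day 0 replicate 1 and 0.82 without replicate 2.

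**Figure D2:**
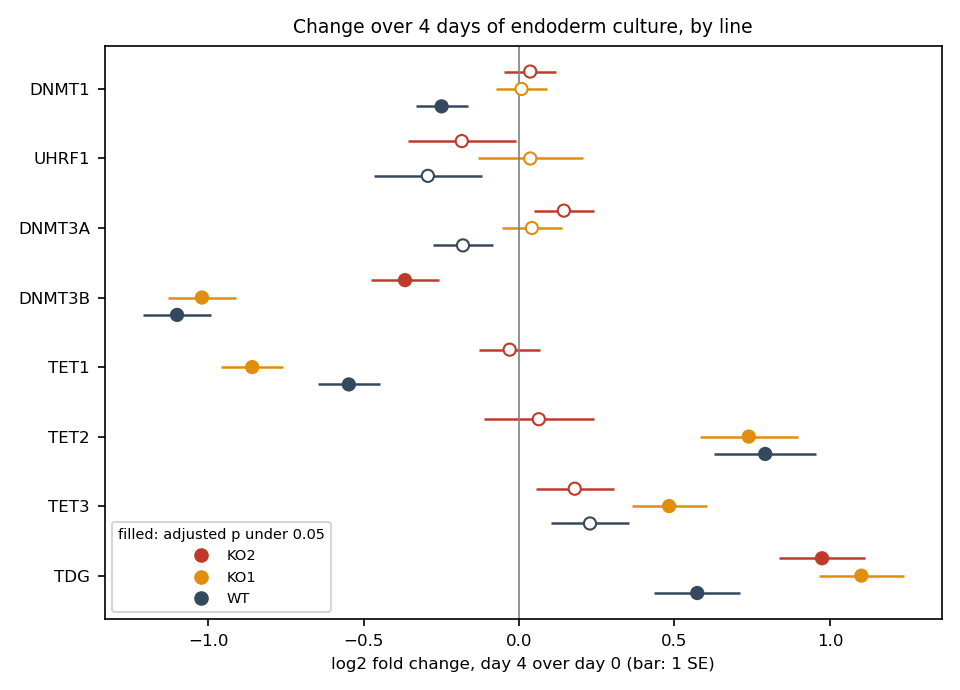
Log2 fold change of day 4 over day 0 (horizontal axis, bars of 1 SE) for the 8 tested members in KO2, KO1 and WT; filled points have an adjusted p under 0.05. TDG lies right of 0 in all 3 lines and DNMT3B left of 0, while TET1 and TET2 lie away from 0 in KO1 and WT and near 0 in KO2.

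At day 4, KO2 had more DNMT3B, TET1, DNMT1 and DNMT3A transcript than WT and less TET2, which makes 5 of 8 members called, where 28% of all tested features were called. Clone KO1 had 1 member called, TET3, where 19.9% of features were called. The median log2 fold change over the 8 members was 0.29 for KO2 over WT and 0.11 for KO1 over WT, and over all features it was 0.0094 and 0.0085. Both comparisons use the same WT libraries.

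DNMT3B averaged 1580 ± 28.9 CPM in KO2, against 1042 ± 109 CPM in WT, which is 0.60 ± 0.11 higher on the log2 scale with an adjusted p of 0.000854 in edgeR. TET1 averaged 122 ± 2.09 CPM in KO2, against 81.2 ± 3.19 CPM in WT, 0.59 ± 0.10 higher with an adjusted p of 0.000454. For both genes every KO2 library lay above every WT library, and both calls held when any 1 library was left out. TET2 averaged 8.31 ± 0.175 CPM in KO2, against 13.2 ± 2.02 CPM in WT, 0.66 ± 0.16 lower with an adjusted p of 0.00623. The TET2 call is lost without WT day 4 replicate 1, with an adjusted p of 0.0823 in edgeR.

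DNMT1 was higher in KO2 than in WT by 0.30 ± 0.08 and DNMT3A by 0.28 ± 0.10, with adjusted p values of 0.0141 and 0.0429 in edgeR. Without any 1 library the differences stayed between 0.25 and 0.32 for DNMT1 and between 0.22 and 0.32 for DNMT3A, while the calls were less stable. The DNMT1 call is lost without WT day 4 replicate 1 (adjusted p 0.135) or 2 (0.0539) and without KO2 day 4 replicate 1 (0.0794) or 2 (0.088). The DNMT3A call is lost without any 1 of the 10 libraries other than KO1 at day 0, at adjusted p values between 0.0621 and 0.258, the highest of them without KO2 day 4 replicate 1. TDG, UHRF1 and TET3 were not called, at differences of 0.30 ± 0.13, 0.14 ± 0.17 and 0.01 ± 0.12. Without KO1 day 0 replicate 1 or 2, TDG was called, at adjusted p values of 0.00154 and 0.00151 in edgeR.

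Clone KO1 averaged 105.5 ± 9.06 CPM of TET3, against 77.9 ± 9.17 CPM in WT, 0.44 ± 0.12 higher with an adjusted p of 0.0196 in edgeR. The call is lost without WT day 4 replicate 2, at 0.222, and without KO1 day 4 replicate 1, at 0.186. DNMT3B and TET1 were lower in KO1 than in WT by 0.21 ± 0.11 and 0.19 ± 0.10, on the other side of WT from KO2, and DNMT1 was higher by 0.21 ± 0.08. None of the 3 was called, at adjusted p values of 0.204, 0.209 and 0.0867, although all 3 were called when either KO1 day 0 library was left out of the shared spread, at adjusted p values of 0.0127 for DNMT3B, 0.0321 and 0.0322 for TET1 and 0.00737 and 0.00742 for DNMT1. UHRF1, TDG, DNMT3A and TET2 differed from WT by 0.25 ± 0.17, 0.17 ± 0.13, 0.06 ± 0.10 and −0.07 ± 0.15.

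**Figure D3:**
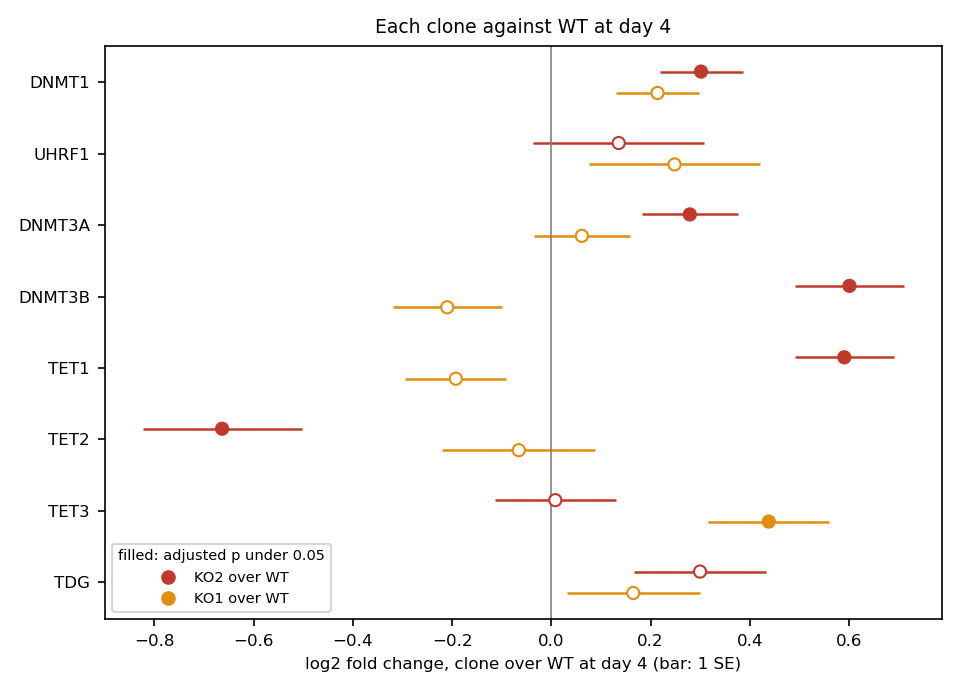
Log2 fold change of each clone over WT at day 4 (horizontal axis, bars of 1 SE) for the 8 tested members; filled points have an adjusted p under 0.05. DNMT3B and TET1 lie right of 0 for KO2 and left of 0 for KO1, and TET3 is called for KO1.

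Set directly against each other at day 4, the clones differed in 4 of 8 members, where 25.1% of all tested features were called. KO2 had 0.81 ± 0.11 more DNMT3B and 0.78 ± 0.10 more TET1 than KO1, on the log2 scale, at adjusted p values of 6.95e-05 and 4.27e-05 in edgeR. KO2 had 0.60 ± 0.16 less TET2 and 0.43 ± 0.12 less TET3 than KO1, at adjusted p values of 0.0135 and 0.017. The TET2 call is lost without KO1 day 4 replicate 1 (0.145), KO2 day 4 replicate 1 (0.0764) or KO2 day 4 replicate 2 (0.0754), and the TET3 call without KO1 day 4 replicate 1 (0.171) or KO2 day 4 replicate 2 (0.158). DNMT3A was 0.22 ± 0.10 higher in KO2 than in KO1, not called at an adjusted p of 0.117. It was called without KO1 day 0 replicate 1 or 2, at 0.00604 and 0.00608. DNMT1, TDG and UHRF1 differed by 0.09 ± 0.08, 0.13 ± 0.13 and −0.11 ± 0.17, and were not called.

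Before differentiation KO2 and WT were not told apart at these genes, and for KO1 the answer turns on its 2 day 0 libraries. No member was called at day 0 in KO2 over WT, where 0.143% of features were called, nor in KO1 over WT, where 0.238% were called, by edgeR or by DESeq2. At an unadjusted p under 0.05 there were 0 members in KO2 and 2 in KO1. In KO2 the log2 differences from WT ran from −0.13 ± 0.11 for DNMT3B to 0.07 ± 0.10 for TET1. The 2 members of KO1 were DNMT3B, lower by 0.29 ± 0.11, and TDG, lower by 0.36 ± 0.14, at adjusted p values of 0.448 and 0.455 in edgeR. Both rest on the KO1 library that stands apart. Without KO1 day 0 replicate 2 the differences were −0.10 and −0.08, and without replicate 1 they were −0.50 and −0.70. Their size therefore turns on which day 0 library is used. Without the filter on low counts DNMT3B was called, at an adjusted p of 0.00475 in edgeR. Without KO1 day 0 replicate 1 the other differences were −0.36 for DNMT3A, −0.46 for UHRF1, −0.19 for DNMT1, 0.27 for TET1, 0.35 for TET3 and 0.077 for TET2. Without replicate 2 they were 0.015, 0.24, 0.092, −0.058, −0.0077 and −0.11 in the same order.

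Whether the change over 4 days differed between a clone and WT was tested as an interaction in the same fit. For KO2, 2 members were called, DNMT3B with a difference of 0.73 ± 0.15 and TET1 with 0.52 ± 0.14, at adjusted p values of 0.00557 and 0.0232 in edgeR, where 13.9% of all features were called. DNMT3B kept its call without any 1 library. TET1 lost it without WT day 0 replicate 2, KO2 day 0 replicate 1 or 2, WT day 4 replicate 1 or 2, and KO2 day 4 replicate 1 or 2, at adjusted p values between 0.0571 and 0.133. The TET2 difference of −0.73 ± 0.24 had an adjusted p of 0.058. It was called without KO1 day 0 replicate 1 (0.0188) or 2 (0.0184) and without WT day 4 replicate 2 (0.0411). DNMT1, DNMT3A and TDG differed by 0.29 ± 0.12, 0.32 ± 0.14 and 0.40 ± 0.20, and none was called. Each was called without either KO1 day 0 library, at adjusted p values of 0.0138 for DNMT1, 0.00786 and 0.00787 for DNMT3A, and 0.00643 and 0.00631 for TDG.

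For KO1, with all libraries and the filter on low counts, no member had an interaction call in edgeR or DESeq2. There were 3 at an unadjusted p under 0.05 in edgeR, where 9.8% of features were called. The 3 were TDG at 0.53 ± 0.19, TET1 at −0.31 ± 0.14 and DNMT1 at 0.26 ± 0.12. Without KO1 day 0 replicate 1 the 3 differences were 0.85, −0.47 and 0.39, and without replicate 2 they were 0.24, −0.15 and 0.11. With all libraries but no filter TDG was called, at an adjusted p of 0.0116 in edgeR. For TET3 the difference was 0.08 without replicate 1 and 0.43 without replicate 2. In the same order it was 0.70 and 0.004 for UHRF1, 0.41 and 0.035 for DNMT3A, 0.28 and −0.12 for DNMT3B and −0.15 and 0.037 for TET2. The size of the KO1 interactions therefore turns on which day 0 library is used.

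Ratios of counts within a library do not depend on the scaling between libraries. The ratio of DNMT3B to DNMT3A counts was 7.63 and 7.91 in KO2, 4.78 and 5.52 in KO1 and 5.85 and 6.57 in WT at day 4. At day 0 it was 11.2 and 10.9 in KO2, 10.8 and 10.6 in KO1 and 11.53 and 11.98 in WT. The 3 lines did not overlap at day 4, and the 2 KO1 day 0 libraries had close ratios although their levels differed. The ratio of TET1 to TET2 counts was 14.8 and 14.7 in KO2, 5.03 and 6.32 in KO1 and 5.39 and 7.08 in WT at day 4, against 14.0 to 17.9 in the 6 day 0 libraries. The ratio of TET1 to TET3 counts was 1.47 and 1.66 in KO2, 0.617 and 0.737 in KO1 and 0.936 and 1.17 in WT at day 4, against 1.70 to 1.91 at day 0. In both TET ratios KO2 at day 4 stood nearest to the day 0 libraries.

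**Figure D4:**
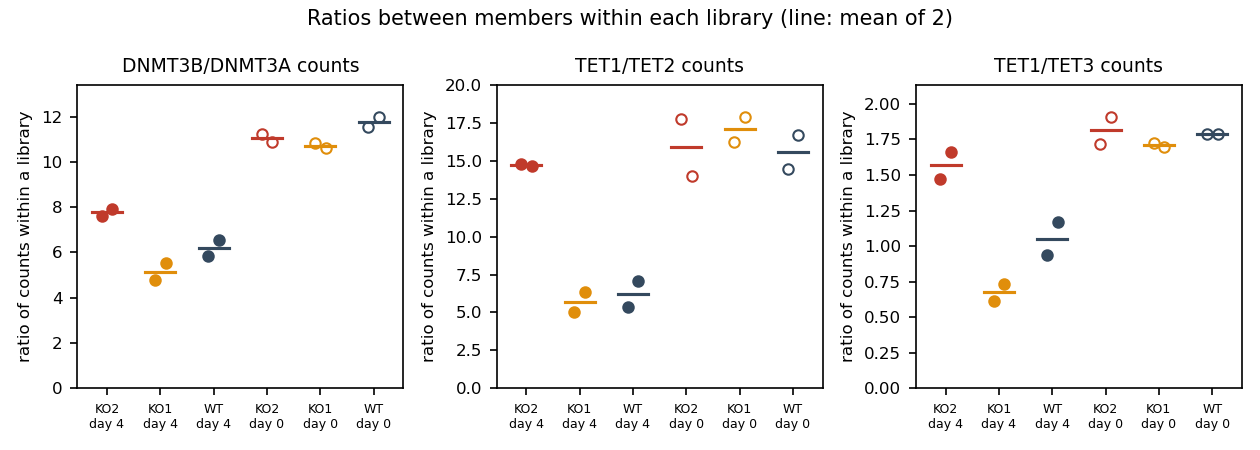
Ratio of counts of 2 members within a library (vertical axis, from 0) in all 12 libraries by line and day; points are libraries, filled at day 4 and open at day 0, and lines are means of 2. All 3 ratios are lower at day 4 than at day 0 in KO1 and WT, and in KO2 the TET1 to TET2 ratio of 14.7 to 14.8 lies within the day 0 range.

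Levels of DNMT3B, TET1 and TET2 were closely related across libraries. Over the 12 libraries, the correlation of log2 CPM was 0.87 between DNMT3B and TET1 and −0.94 between DNMT3B and TET2, and over the 6 day 4 libraries 0.99 and −0.94. TDG did not keep 1 relation to them, at −0.62 with DNMT3B and −0.61 with TET1 over the 12 libraries and 0.67 and 0.69 over the 6 day 4 libraries. These points share groups and are a description only. Of the 12153 features with at least 5 CPM on average, the 3 whose pattern over the 12 libraries was most like that of DNMT3B were IQSEC2 (r = 0.99), NDUFV2 (0.99) and PARP1 (0.99). For TET1 they were GPR98 (0.98), SLAIN1 (0.98) and JMJD1C (0.98), and for TET2 they were GMPR, CLN8 and SLC2A14 (0.97 each). TDG was nearest to ZNF544, DDX52 and SHPRH (0.99 each) and TET3 to POGZ (0.97), CHD2 (0.96) and ELMSAN1 (0.96). DNMT1 had EIF3B (0.95), RRP1B (0.94) and SLTM (0.94), DNMT3A had NOP16 (0.97), GEMIN4 (0.96) and PARK7 (0.96), and UHRF1 had ACOT7 (0.93) and PRMT1 (0.90).

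Cell state markers also differed between the lines at day 4, and markers of 1 list did not all go the same way. The summed level of 6 definitive endoderm markers was 825 to 1045 CPM in KO2, 4871 to 4949 CPM in KO1 and 4439 to 4833 CPM in WT at day 4, and 5.44 to 12.4 CPM in the day 0 libraries. Most of this sum is CER1, a secreted inhibitor of Nodal, which averaged 866 ± 143 CPM in KO2, 4490 ± 64.8 CPM in KO1 and 4032 ± 221 CPM in WT at day 4. Of the 6 markers, 6 were lower in KO2 than in WT, where 14.5% of all features were lower, and 3 were lower and 0 higher in KO1 than in WT, where 9.42% were lower, with medians of −2.91 and −0.30. The KO2 count was 6 without any 1 library, and the KO1 count was 2 without any 1 of the 6 day 4 libraries. The means of the other 5 markers were lowest in KO2 and highest in WT. SOX17, a transcription factor that defines endoderm, averaged 16.5 ± 1.54 CPM in KO2, 106 ± 5.32 CPM in KO1 and 138 ± 12.7 CPM in WT at day 4. The 6 pluripotency markers summed to 3158 to 3162 CPM in KO2, 2940 to 2982 CPM in KO1 and 2976 to 3098 CPM in WT at day 4, and to 3507 to 3791 CPM at day 0. LIN28A, an RNA-binding protein, is the largest term of that sum, at 1572 ± 36.1 CPM in KO2, 1624 ± 47.7 CPM in KO1 and 1697 ± 60.7 CPM in WT at day 4. One by one, 4 of the 6 were higher and 1 lower in KO2 than in WT, with a median of 0.45. In KO1, 1 was higher and 1 lower. Over all features, 13.5% were higher and 14.5% lower in KO2, and 10.5% higher and 9.42% lower in KO1. The 4 higher in KO2 were 3 without either WT day 4 library, and the 1 lower was 0 without WT day 4 replicate 1 or either KO2 day 4 library. SOX2, a core pluripotency factor, averaged 167 ± 1.86 CPM in KO2, 77.9 ± 12.4 CPM in KO1 and 112 ± 8.9 CPM in WT at day 4. POU5F1, the pluripotency factor OCT4, averaged 540 ± 38.4 CPM in KO2, 392 ± 9.04 CPM in KO1 and 384 ± 7.46 CPM in WT at day 4. ZFP42 had higher means in both clones, at 332 ± 0.843 CPM in KO2 and 300 ± 0.715 CPM in KO1, against 176 ± 25.4 CPM in WT. TDGF1 had lower means in both, at 488 ± 1.23 and 520 ± 3.82 CPM, against 622 ± 65.9 CPM in WT. NANOG averaged 61.7, 47.3 and 46.5 CPM in KO2, KO1 and WT at day 4, up from 22.2, 25.5 and 25.8 CPM at day 0. The 3 primitive streak markers summed to 224 to 244 CPM in KO2, 665 to 681 CPM in KO1 and 426 to 569 CPM in WT at day 4, while 1 of them, T, was higher in KO2 (22.0 ± 3.28 CPM) than in WT (13.4 ± 1.6 CPM), a call lost without WT day 4 replicate 2 or KO2 day 4 replicate 2. The 5 mesoderm markers summed to 9.44 to 10.2 CPM in KO2, 36.7 to 39.6 CPM in KO1 and 14.6 to 16.8 CPM in WT at day 4, and the 4 trophoblast markers to 2.89 to 3.41, 3.97 to 4.61 and 3.81 to 3.93 CPM in those lines. The 4 neuroectoderm markers summed to 34.1 CPM in both KO2 libraries, 34.2 to 36.1 CPM in KO1 and 38.2 to 40.3 CPM in WT at day 4, and the 5 fibroblast markers to 469 to 476, 479 to 509 and 412 to 440.0 CPM. Of the fibroblast markers, DCN was at 0 in both WT day 0 libraries and averaged at most 0.164 CPM in any group. The part of cell state in the differences of the members was not tested.

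The proteins around these enzymes were followed through companion lists. Among 11 readers of methylated CG, 6 rose and 0 fell in WT over 4 days, with a median log2 change of 0.30 beside −0.0038 for all features, where 24.3% of all features rose. KO2 had 0 higher and 6 lower than WT at day 4, with a median of −0.26, where 14.5% of all features were lower, and KO1 had 0 called by edgeR or DESeq2, with 2 at an unadjusted p under 0.05. Without WT day 4 replicate 1 or 2 the KO2 count of 6 was 1 or 3, and without KO2 day 4 replicate 1 or 2 it was 2. MBD6 averaged 29.8 ± 1.14 CPM in KO2 and 55.3 ± 8.55 CPM in WT at day 4, a difference of −0.89 ± 0.11 with an adjusted p of 3.4e-05, and 27.8 ± 0.0264 CPM in WT at day 0. ZBTB38, a zinc finger protein that binds methylated DNA, averaged 23.9 ± 1.28 CPM in KO2 and 34.4 ± 3.6 CPM in WT at day 4, a difference of −0.53 ± 0.14 with an adjusted p of 0.0125 in edgeR, lost without WT day 4 replicate 1 (0.12) and without KO2 day 4 replicate 1 (0.0874) or 2 (0.0527). In WT both rose between the days, MBD6 by 0.99 ± 0.11 and ZBTB38 by 1.23 ± 0.15.

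Of 15 partners and chromatin regulators of the methyltransferases, 2 rose and 7 fell in WT, where 25.4% of all features fell. EHMT2, a histone H3 lysine methyltransferase, averaged 161 ± 2.11 CPM in WT at day 4 and 274 ± 24.1 CPM in WT at day 0, and fell by 0.76 ± 0.10. HELLS, a chromatin remodeller needed for DNA methylation, averaged 93.0 ± 9.49 CPM in WT at day 4 and 149.6 ± 9.13 CPM in WT at day 0, and fell by 0.69 ± 0.10. SETD2 rose by 0.42 ± 0.08 and NSD1 by 0.21 ± 0.07, both of them histone H3 lysine 36 methyltransferases. The NSD1 call is lost without WT day 0 replicate 1 (adjusted p 0.155), without WT day 4 replicate 2 (0.0886) and with upper-quartile factors (0.085). At day 4 KO2 had 4 higher and 0 lower than WT, where 13.5% of all features were higher, and KO1 had 0 called by edgeR or DESeq2, with 2 at an unadjusted p under 0.05. USP7, a deubiquitinase that binds DNMT1 and UHRF1, averaged 433 ± 10.2 CPM in KO2 and 309 ± 21.0 CPM in WT, 0.49 ± 0.07 higher with an adjusted p of 0.000152 in edgeR. PCNA, the replication clamp that tethers DNMT1, was 0.48 ± 0.10 higher at 286 ± 0.122 CPM in KO2 and 205 ± 21.0 CPM in WT. The KO2 count of 4 was larger without either KO1 day 0 library and smaller without any 1 library of WT at day 4 or of KO2 at either day.

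Of 18 tested TET regulators and base excision repair genes, 5 rose and 4 fell in WT, near the 24.3% and 25.4% of all features. The GADD45 proteins have been linked to active demethylation. GADD45B averaged 27.3 ± 4.98 CPM in WT at day 4 and 7.21 ± 0.196 CPM in WT at day 0, and GADD45A rose by 1.09 ± 0.14. IDH2, which makes the 2-oxoglutarate that TET enzymes use, averaged 22.1 ± 3.69 CPM in WT at day 4 and 86.7 ± 9.37 CPM in WT at day 0, and fell by 1.96 ± 0.13. PARP1, a sensor of DNA breaks, fell by 0.83 ± 0.08. Each clone had 4 higher and 2 lower than WT at day 4, where 13.5% of all features were higher and 14.5% lower in KO2, and 10.5% higher and 9.42% lower in KO1. The counts were small and moved with single libraries, between 2 and 5 higher and between 0 and 5 lower without any 1 library, in KO2 and KO1 together. In KO2 the uracil glycosylase UNG was 0.61 ± 0.11 higher and PARP1 0.44 ± 0.08 higher, and GADD45A was 0.55 ± 0.13 lower and IDH1 0.35 ± 0.07 lower. In KO1, IDH2 was 0.76 ± 0.13 higher, GADD45B 0.57 ± 0.17 higher and the repair scaffold XRCC1 0.35 ± 0.09 lower. The GADD45B call is lost without WT day 4 replicate 2 (0.268) and without KO1 day 4 replicate 1 (0.183) or 2 (0.0639), and the XRCC1 call without WT day 4 replicate 1 (0.0895) or KO1 day 4 replicate 1 (0.132).

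The methyl donor cycle supplies S-adenosylmethionine. Of its 12 genes, 2 rose and 6 fell in WT, where 24.3% of all features rose and 25.4% fell. At day 4 KO2 had 5 higher and 0 lower than WT, where 13.5% of all features were higher, and KO1 had 2 higher and 0 lower, where 10.5% were higher. The KO2 count of 5 was 3 without WT day 4 replicate 1 or KO2 day 4 replicate 1 and 8 without either KO1 day 0 library. MTHFD1, a folate cycle enzyme, averaged 375 ± 0.175 CPM in KO2 and 246 ± 1.4 CPM in WT at day 4, 0.61 ± 0.07 higher with an adjusted p of 1.79e-05 in edgeR. MTRR, which keeps methionine synthase active, was 0.57 ± 0.10 higher in KO2. SHMT2, the mitochondrial serine hydroxymethyltransferase, was 0.45 ± 0.07 higher in KO1. In WT over 4 days, MTHFD1 fell by 0.80 ± 0.07 and MAT2B by 0.72 ± 0.08, and SHMT1 rose by 0.39 ± 0.09. MAT2A, the enzyme that makes S-adenosylmethionine, rose by 0.32 ± 0.10, a call lost without WT day 0 replicate 2 (0.0535) or WT day 4 replicate 1 (0.0817).

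DNMT1 and UHRF1 work at the replication fork, so replication genes were counted beside them. Of 13, 3 rose and 7 fell in WT over 4 days, where 24.3% of all features rose and 25.4% fell. At day 4 KO2 had 9 higher and 0 lower than WT, with a median of 0.48, where 13.5% of all features were higher, and KO1 had 2 higher and 0 lower, with a median of 0.14, where 10.5% were higher. Their summed level was 4218 to 4233 CPM in KO2, 3722 to 3814 CPM in KO1 and 3222 to 3379 CPM in WT at day 4, the same order as DNMT1. Without WT day 4 replicate 1, 5 were higher in KO2 and 0 in KO1, and 4 fell in WT, and without either KO1 day 0 library 5 were higher in KO1. CDC6, which loads the replicative helicase, averaged 298 ± 12.2 CPM in KO2 and 189 ± 17.7 CPM in WT, 0.66 ± 0.10 higher, and the helicase subunit MCM2 was 0.59 ± 0.11 higher. In KO1, CDC6 was 0.49 ± 0.10 higher than in WT, a call lost without WT day 4 replicate 1 (0.0597). RRM2, which makes deoxynucleotides, was 0.56 ± 0.16 higher in KO1, a call lost without either library of KO1 or WT at day 4, at adjusted p values from 0.0823 to 0.168, and in DESeq2, at 0.0754. In WT over 4 days CCNE1 fell by 0.94 ± 0.11 and CDT1 by 0.70 ± 0.11, while MKI67 rose by 0.62 ± 0.13 and TYMS by 0.46 ± 0.10. The part of replication in the DNMT1 difference was not tested. The summed level of 10 germline genes that promoter methylation is known to silence lay between 17.3 and 31.5 CPM in the 12 libraries. Of the 10, 5 passed the filter. Of those 5, 2 rose and 1 fell in WT, where 24.3% of all features rose and 25.4% fell, and 2 were lower in KO2 than in WT at day 4, where 14.5% were lower. These 2 were 0 without WT day 4 replicate 1 or KO2 day 4 replicate 2, and the 2 that rose in WT were 0 without WT day 0 replicate 2.

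**Figure D5:**
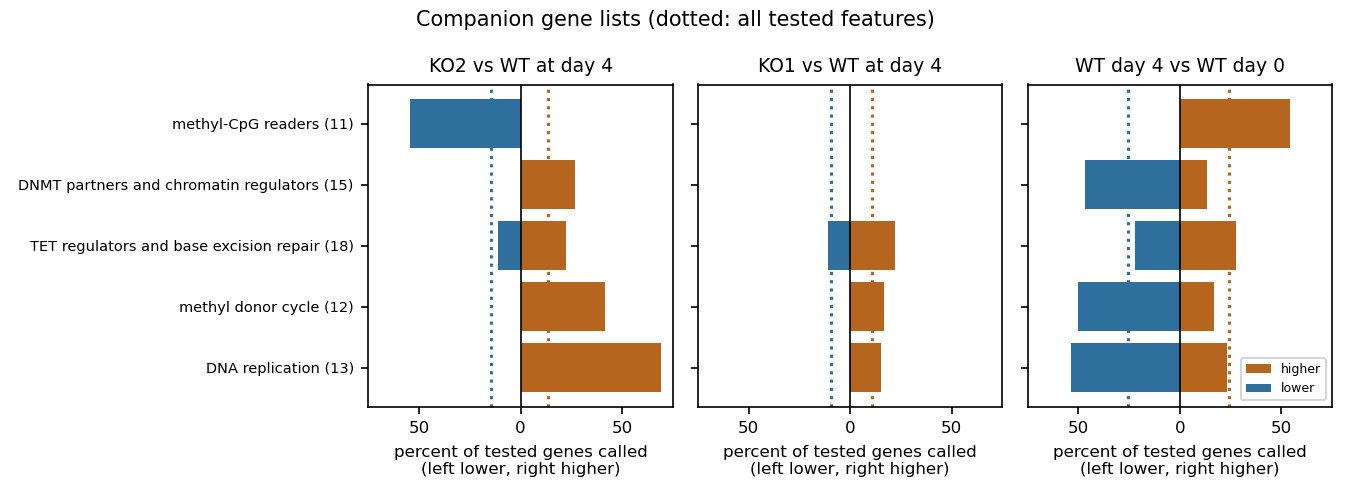
Percent of tested genes of 5 companion lists called higher (right of 0) or lower (left of 0), for KO2 and KO1 over WT at day 4 and for WT at day 4 over day 0; the number tested is in brackets, and dotted lines give the share over all tested features. Readers of methylated CG lie on the lower side for KO2 (6 of 11) and on the higher side for the WT change (6 of 11), and the replication list shows 9 of 13 higher in KO2.

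Genes next to the members on the chromosome did not all follow them. Over all features, 13.5% were higher and 14.5% lower in KO2 than in WT at day 4, and 10.5% higher and 9.42% lower in KO1. Among the 10 nearest tested genes on each side of DNMT3B on chromosome 20, 5 were higher and 4 lower in KO2 than in WT at day 4, with a median log2 difference of −0.01, where DNMT3B was 0.60 higher. At day 0 the same 20 neighbours had a median of 0.06 in KO2 over WT, with a range of −0.096 to 0.96, while DNMT3B was 0.13 lower. Of these neighbours 1 was called, where 0.143% of all features were called. Around TET1 on chromosome 10, 8 of 20 neighbours were higher and 2 lower in KO2 at day 4, with a median of 0.28 where TET1 was 0.59 higher. Around TET2 on chromosome 4, 3 of 20 were higher and 1 lower, with a median of 0.17 where TET2 was 0.66 lower. Around TET3 on chromosome 2, 1 of 20 was higher and 2 lower in KO1 than in WT at day 4, with a median of 0.02 where TET3 was 0.44 higher.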

How the data were processed

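The deposited values are counts of reads per feature in 12 RNA-seq libraries from a stranded poly(A) kit, per the labels' protocols. Alignment with Bowtie2 2.1.0 to hg19 and counting with HTSeq 0.6.1 are per the submitters' processing notes. The sources used here name neither the annotation nor the strand setting of the counting. Reads set aside by the counting came to 50.4% to 53.7% of a library and were left out. The 8 ChIP-seq samples were not analysed here.

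Counts were scaled with TMM factors (0.937 to 1.05), filtered with filterByExpr and fitted with edgeR's quasi-likelihood model over all 12 libraries in 6 groups, with Benjamini-Hochberg correction over 16792 features and a threshold of 0.05. The 10 comparisons are each line at day 4 over day 0, the lines against each other at day 4, each clone over WT at day 0, and 2 interactions. SE was taken as |log2 fold change|/√F. Software was R 4.3.3, edgeR 4.0.16, DESeq2 1.42.0 and Python 3.11.15. The fit was tested on simulated data with changes planted in KO2 at day 4 only. The planted changes were larger than the differences between lines in the members, and no simulated pair varied like KO1 at day 0. The simulation therefore does not bear on differences of that size or on that pair. Members, gene lists and comparisons were chosen with earlier results of these data known. All members are named. Some genes that the naming rules select are not reported here. From each companion list, the 2 called genes with the largest log2 change each way and at least 5 CPM in the higher group are named in 3 comparisons (WT over time and each clone over WT at day 4). GRCh38 gene tables gave names, neighbours and promoters only, and no coordinate was carried between builds. Alternatives were upper-quartile and DESeq2 factors, no filter, DESeq2, a replicate block, fits of only the groups compared, and leaving out each library.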

Additional observations from a re-analysis of the deposited data

Results flagged for a closer look

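In 2 members the change over 4 days differed between clone KO2 and WT by the test of the difference itself. For DNMT3B the log2 change was −0.37 in KO2 and −1.10 in WT, a difference of 0.73 ± 0.15 (SE, adjusted p 0.00557 in edgeR), with an approximate 95% interval of 0.43 to 1.04. For TET1 it was −0.03 in KO2 and −0.55 in WT, a difference of 0.52 ± 0.14 (adjusted p 0.0232 in edgeR), with an interval of 0.24 to 0.79. The DNMT3B call was kept without any 1 library, and the TET1 call is lost without any 1 of 7 libraries, as given above.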

How the results depend on the processing

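Of 24 member calls over the 10 comparisons, all 24 held in each of upper-quartile factors, DESeq2 size factors, no filter, DESeq2, the replicate block and fits of only the groups compared. Leaving out each library gave 253 cases in which a call held and 35 in which it was lost. Most of these cases left out a library outside the groups compared, and the share lost was higher among libraries that a comparison uses. The replicate numbers were not taken to pair the samples, since only 7 of 15 group pairs had a correlation of deviations over 0.1 (range −0.0988 to 0.326). The 3 pairs of day 0 groups were among the 7, at 0.209 to 0.326, a hint of shared structure from the data and not from the labels. With the replicate block the counts of called members were the same, 5 for KO2 over WT at day 4, and among the companion lists the methyl donor count of 5 in KO2 became 8.

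Counts of called members without any 1 library ran from 1 to 3 in KO2 over time, 5 to 8 in KO1 over time and 4 to 8 in WT over time. At day 4 they ran from 2 to 6 for KO2 over WT, 0 to 4 for KO1 over WT and 2 to 5 for KO2 over KO1. At day 0 they ran from 0 to 7 for KO1 over WT. For the interactions they ran from 1 to 6 in KO2 and 0 to 6 in KO1. With only the groups compared, the counts were 5 in KO2 over time (2 with all groups), 4 for KO1 over WT at day 4 (1) and 6 for the KO2 interaction (2). Without the filter, they were 2 for KO1 over WT at day 4 (1), 1 for KO1 over WT at day 0 (0) and 1 for the KO1 interaction (0). Calls over all features moved too. KO1 over WT at day 0 had 40, against 383 without the filter, 12 with only the groups compared, 9 without either WT day 0 library and 3787 without KO1 day 0 replicate 1. KO2 over WT at day 0 had 24, against 113 without the filter, 38 in DESeq2, 105 with only the groups compared, and 2 to 120 without any 1 library. With only the groups compared, there were 5109 calls for KO1 over WT at day 4 (3337 with all groups), 6748 for KO2 over KO1 (4214), and 4098 and 853 for the KO2 and KO1 interactions (2329 and 1645). Without any 1 library, calls over all features at day 4 ran from 2492 to 6596 for KO2 over WT, 1353 to 5228 for KO1 over WT and 2146 to 6120 for KO2 over KO1, and for the interactions from 1210 to 4245 in KO2 and 607 to 4513 in KO1. The highest of each came without a KO1 day 0 library. The cause was not tested.

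A change of sign occurred only in differences that were not called with all libraries. Upper-quartile factors, which move the median of all features by at most 0.0828, gave −0.074 for DNMT1, −0.040 for DNMT3A and −0.044 for UHRF1 in KO1 over time and −0.023 for DNMT1 in KO2 over time. With only the groups compared, TET3 in KO2 over WT at day 4 was −0.0096. Without any 1 library, the log2 differences in KO1 over time ran from −0.12 to 0.16 for DNMT1, −0.13 to 0.24 for DNMT3A and −0.27 to 0.43 for UHRF1, and TET2 in KO2 over time from −0.080 to 0.23. At day 4, TET2 in KO1 over WT ran from −0.23 to 0.083, TET3 in KO2 over WT from −0.13 to 0.12 and UHRF1 in KO2 over KO1 from −0.22 to 0.020. In KO1 over WT at day 0 the ranges were −0.19 to 0.092 for DNMT1, −0.36 to 0.015 for DNMT3A, −0.46 to 0.24 for UHRF1, −0.058 to 0.27 for TET1, −0.11 to 0.077 for TET2 and −0.0077 to 0.35 for TET3. In KO2 over WT at day 0 they were −0.0065 to 0.035 for DNMT1, −0.069 to 0.12 for UHRF1, −0.0059 to 0.16 for TET1, −0.10 to 0.21 for TET2 and −0.040 to 0.14 for TET3. In the interactions they were −0.12 to 0.28 for DNMT3B and −0.22 to 0.097 for TET2 in KO1, and −0.18 to 0.063 for TET3 in KO2.

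A group with 1 library left is assumed to vary like the other groups. Each group has 2 libraries and each clone line is 1 clone, and DNMT3L is too low to compare.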
